A study of Mus musculus with 6 samples.

Results

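Non-histone genes that lie beside or between the histone genes of mouse chromosome 13 were followed in wild-type embryonic stem cells and in cells that lack 3 of the linker histone genes of that cluster. The genes were chosen by position, as 10 named neighbours of the cluster: Trim27, Abt1, Btn1a1, Hfe, Slc17a1, Scgn, Cmah, Gmnn, Aldh5a1 and Sox4. The platform annotation lists 8 of them among 8251 genes, with 10 of the 12488 probe sets of the array; Scgn, a calcium-binding protein of neuroendocrine cells, and Aldh5a1, an enzyme of GABA breakdown, match no probe set and were not analysed here. Of the 10 probe sets, 5 gave a signal above background on all 6 arrays. These were the single probe sets of Trim27, Abt1 and Gmnn and both probe sets of Sox4. None of these 5 passed the test in any comparison between the lines. The largest difference was that of Abt1, which measured 158.7 ± 42.7 intensity units (SD, n = 2) in null line 2 against 83.2 ± 21.4 (SD, n = 2) in wild type (limma adjusted p = 0.262).

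Linker histones bind the DNA that enters and leaves the nucleosome and help to fold chromatin. In mouse, most of their genes sit among the core histone genes in a cluster on chromosome 13, whose genes are transcribed mainly in S phase, when new chromatin is assembled. Genes of other kinds, such as the iron regulator Hfe, stand among and beside them, so that a genetic change made in the cluster is closely linked to them. The arrays covered 3 groups of embryonic stem cells, all grown exponentially: wild-type cells, and 2 lines in which H1c (H1f2 in current naming), H1d (H1f3) and H1e (H1f4) are null, each on 2 arrays. Titles number the arrays of every line as experiment 1 and 2. Each null line is 1 derived line, and strain, passage and feeder cells are not given in the sources used here. Whether the 2 arrays of each line are separate cultures is not stated in the labels; if they are not, the p-values reflect technical spread alone.

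In the gene order of the RefSeq mouse genes, 54 histone genes lie between Trim27 and Scgn, 6 of them linker histone genes. Only some of the chosen genes flank this cluster in the strict sense. Trim27 comes before all 54 histone genes, separated from the first by 18 protein-coding genes. Abt1 and Btn1a1 are direct neighbours inside the cluster, after 23 histone genes that include H1f5 and before 31 others. Between Btn1a1 and Hfe come 20 histone genes, among them 2 of the inactivated ones, H1f3 and H1f4. Hfe has no other protein-coding gene between itself and H1f2, the remaining inactivated gene, and 11 histone genes follow it. Slc17a1 stands before the last 2 histone genes. Cmah, Gmnn and Sox4 lie outside on the far side, with 2, 5 and 40 protein-coding genes between them and the last histone gene.

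Promoter sequences from RefSeq (GRCm38.p6) were available for 6 of the 8 genes on the array. They are shown because the genes that gave a signal and those at background differed in CpG dinucleotides, the sites of DNA methylation in mammals. Each line gives the 250 bases before the first listed start of transcription, 5′ to 3′ on the gene's strand, with CpG dinucleotides in capitals. The first 3 lines belong to genes above background on all 6 arrays, and the last 3 to genes at or below it on at least 5 arrays.
Trim27, chr13:21179681-21179930, plus strand: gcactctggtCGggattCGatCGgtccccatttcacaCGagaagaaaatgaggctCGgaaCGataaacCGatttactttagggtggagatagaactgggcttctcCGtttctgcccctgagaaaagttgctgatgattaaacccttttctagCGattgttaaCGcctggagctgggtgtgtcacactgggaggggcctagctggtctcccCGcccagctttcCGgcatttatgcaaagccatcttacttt
Abt1, chr13:23423867-23424116, minus strand: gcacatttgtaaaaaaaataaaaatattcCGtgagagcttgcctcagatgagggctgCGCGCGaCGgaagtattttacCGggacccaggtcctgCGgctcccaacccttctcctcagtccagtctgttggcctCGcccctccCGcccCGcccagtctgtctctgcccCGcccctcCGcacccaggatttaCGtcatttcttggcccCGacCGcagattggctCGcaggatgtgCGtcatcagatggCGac
Sox4, chr13:28953700-28953949, minus strand: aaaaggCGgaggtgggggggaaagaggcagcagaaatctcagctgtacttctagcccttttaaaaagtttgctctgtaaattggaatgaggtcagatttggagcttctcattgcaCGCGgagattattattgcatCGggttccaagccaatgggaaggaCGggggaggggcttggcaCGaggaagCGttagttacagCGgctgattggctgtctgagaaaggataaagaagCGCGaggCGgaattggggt
Hfe, chr13:23710855-23711104, minus strand: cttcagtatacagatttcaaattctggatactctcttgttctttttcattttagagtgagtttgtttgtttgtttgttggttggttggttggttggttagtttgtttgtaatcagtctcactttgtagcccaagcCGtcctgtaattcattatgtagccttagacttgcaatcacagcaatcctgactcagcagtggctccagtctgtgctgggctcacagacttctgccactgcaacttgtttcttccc
Slc17a1, chr13:23868768-23869017, plus strand: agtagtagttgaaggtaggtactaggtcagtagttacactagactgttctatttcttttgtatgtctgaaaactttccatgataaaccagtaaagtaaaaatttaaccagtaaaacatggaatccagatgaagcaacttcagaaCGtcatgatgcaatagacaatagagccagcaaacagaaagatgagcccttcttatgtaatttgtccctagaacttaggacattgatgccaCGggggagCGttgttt
Cmah, chr13:24327154-24327403, plus strand: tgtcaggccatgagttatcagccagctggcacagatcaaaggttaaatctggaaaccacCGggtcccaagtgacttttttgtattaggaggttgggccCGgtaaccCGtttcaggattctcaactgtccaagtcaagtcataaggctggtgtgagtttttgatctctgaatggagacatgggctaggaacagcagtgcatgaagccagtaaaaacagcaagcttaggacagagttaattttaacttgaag

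The letters CG, which read the same on both strands, occurred 12 times in the Trim27 window, 18 times in that of Abt1 and 11 times in that of Sox4. The windows of the dim genes held fewer: 1 for Hfe, 3 for the first start of Slc17a1 and 3 for the first start of Cmah. The second listed starts of Slc17a1 and Cmah had 0 and 2. Over 32851 promoter windows of the same length, 92.1% held at least 1 CG, and the median count was 6. Over all array genes with a window, the median was 17 for 4537 genes above background on all 6 arrays (quartiles 10 and 23) and 5 for 1022 genes at or below it on all 6 (quartiles 2 and 13.8). Trim27, Abt1 and Sox4 lay within the quartiles of the genes above background. Hfe was below the lower quartile of the undetected genes. These counts describe the windows and say nothing about methylation in these cells, which was not measured.

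**Figure D1:**
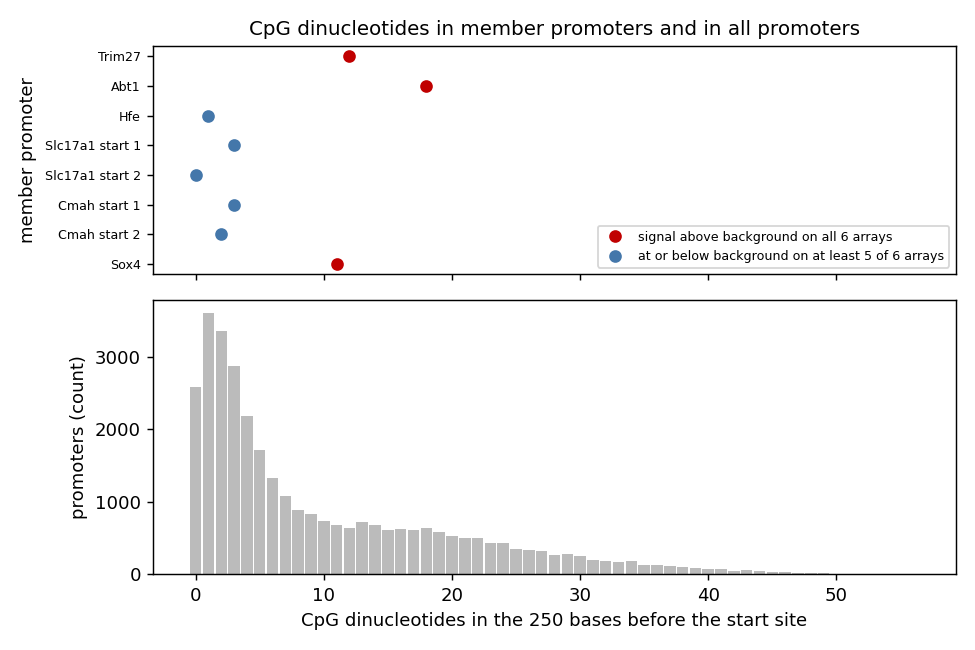
The upper panel plots the number of CpG dinucleotides in the 250 bases before each listed start of the 6 members with a promoter sequence, red for genes above background on all 6 arrays and blue for the others. The lower panel shows the number of promoters at each count over 32851 windows. The red points lie at 11, 12 and 18, and the blue points at 3 or below.

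All signals below are linear array intensities, given once for each probe set on each array and scaled by the submitters to a common level. The background is the highest of 19 control probe sets for bacterial and yeast genes, which lay between 9.1 and 17.2 on the 6 arrays. Over all 12422 probe sets that are not controls, 59.5% were above background on every array and 22.7% at or below it on every array. Of the targeted genes, H1f2 was at 70 and 68.2 in wild type and at 11.1 to 14.4 in all 4 null samples, with no overlap. The probe sets of H1f3 and H1f4 were at or below background on all 6 arrays and check nothing. All 10 embryonic stem cell markers of a list of 10 were above background on all arrays, with a summed signal of 7828 to 7971 in wild type and 8197 to 9147 in the null cells. These sums did not overlap. Without Dppa5a, the brightest of the 10, they stayed apart only narrowly (5375.2 and 5492.8 in wild type, 5529.5 to 6166.3 in the null cells). With the mean of both null lines set against wild type, 6 of the 10 markers had positive and 4 negative changes. Fbxo15 alone passed the test (1.05 ± 0.13 on the log2 scale, SE, limma adjusted p = 0.0465), where 0.416% of all tested probe sets did. Fbxo15 measured 170.2 and 155.6 in wild type and 301 to 375.4 in the null cells. That rise is larger than the narrow gap between the sums without Dppa5a, and sums without Fbxo15 were not taken. Fibroblast markers, which could come from feeder cells, summed to 1015 to 1059 in wild type and 777 to 906 in the null cells, with 3 of 10 above background on all arrays and Fap at background on all of them. That gap was carried by Acta2, a smooth muscle actin, at 608.8 and 512.5 in wild type and 290.3 to 420.7 in the null cells. Without Acta2 the sums were 450 and 502.9 in wild type and 484.5 to 497.4 in the null cells, and overlapped. Markers of extraembryonic endoderm summed to 646 to 717 in wild type and 476 to 531 in the null cells, with 7 of 8 above background on all arrays. Here Col4a1, a basement membrane collagen, carried the gap, at 359.1 and 393 against 203.3 to 277.2, and without it the sums overlapped (286.9 and 324.4 against 228.2 to 310.2). Neural markers summed to 780 to 988 and 916 to 1150, which overlap, with 2 of 6 above background and Map2 at background on all arrays. In bulk samples such as these, fewer cells of a type and less RNA per cell cannot be told apart for any gene.

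**Figure D2:**
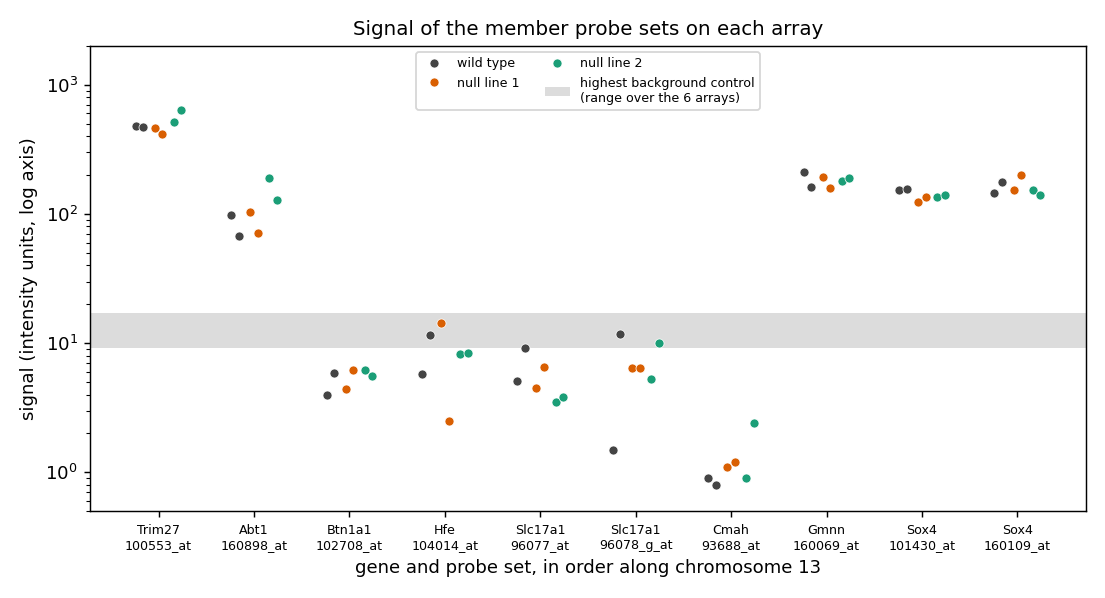
Each point is the signal of a probe set on 1 array, in intensity units on a log axis, with the probe sets in their order along chromosome 13, coloured by line. The grey band spans the highest background control of the 6 arrays, 9.1 to 17.2. Trim27, Abt1, Gmnn and both probe sets of Sox4 lie above the band on every array. Btn1a1, Hfe, both probe sets of Slc17a1 and Cmah lie within or below it, and within the Abt1 column the points of line 2 stand highest.

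Differences were tested with limma on log2(signal + 2), fitted to all 7453 probe sets whose mean signal passed a filter (20.9 intensity units), with Benjamini-Hochberg adjusted p-values over all of them and a threshold of 0.05. Fold changes are on this scale, which understates changes of dim genes. The spread is that between arrays of the same line. The SE and interval of an average of both null lines therefore leave out the difference between these lines. For the null average, the mean of both null lines set against wild type, 0 of the 5 tested member probe sets passed, where 0.416% of all probe sets did. At an unadjusted p under 0.05 the count was also 0 of 5, against 12.7% of all probe sets. The median log2 change of the 5 was 0.01, with a range of -0.19 to 0.49, and the median over all 7453 was -0.01. By position of the arrays alone, 1 of the 5, the first of Sox4, had all 4 null arrays higher or all 4 lower than wild type, a pattern seen in 23.0% of all probe sets.

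In line 1 minus wild type, 0 of the 5 passed (0.134% of all probe sets), and 0 of 5 had an unadjusted p under 0.05 (9.49% of all). In line 2 minus wild type, 0 of the 5 passed (0.255% of all), and Abt1 alone had an unadjusted p under 0.05 (14.1% of all). Between the null lines, 0 of the 5 passed (0.0268% of all), and Trim27 and Abt1 had an unadjusted p under 0.05 (7.55% of all). Both line 2 arrays stood apart from the other 4 for Trim27 and Abt1, both higher, against 21.3% of all probe sets. Those of line 1 did so for Trim27, lower, against 13.5%. With 5 probe sets, these counts are too small to set apart from the shares over all probe sets. Both null lines are compared with the same wild-type arrays.

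**Figure D3:**
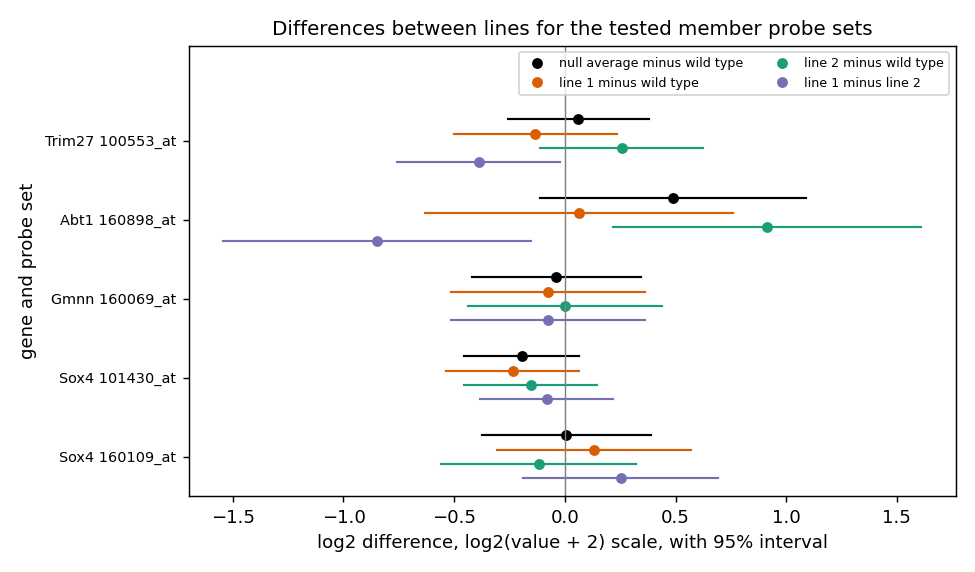
Points are log2 differences between lines for the 5 tested member probe sets, on the log2(value + 2) scale, and bars are limma's 95% intervals. All intervals cover 0 except 3. Those of Abt1 in line 2 minus wild type and of Abt1 and Trim27 between the null lines lie to one side of 0, and these differences did not pass after adjustment over all probe sets.

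Abt1 encodes a nucleolar protein described as an activator of basal transcription that also takes part in making ribosomes. Its single probe set measured 98.4 and 68.1 in wild type, 103.2 and 71.2 in null line 1 and 188.9 and 128.5 in null line 2. Both arrays of line 2 were above the other 4, while line 1 and wild type overlapped. In every line the array of experiment 1 was the higher. With the experiment number as a block, the SE of the log2 change in line 2 was 0.12 (limma adjusted p = 0.115), against 0.29 in the main fit. The log2 change was 0.91 ± 0.29 (SE) in line 2, a 1.88-fold difference with a 95% interval of 1.16 to 3.05, at an unadjusted p of 0.0182 and a limma adjusted p of 0.262. In line 1 it was 0.06 ± 0.29 (SE, adjusted p = 0.968), 1.05-fold with an interval of 0.646 to 1.69. The lines differed from each other by -0.85 ± 0.29 (line 1 minus line 2, adjusted p = 0.627), and the average of both was 0.49 ± 0.25 above wild type (adjusted p = 0.473). With the 4 null arrays taken as 1 group, which counts the gap between the lines as spread, the SE of the average for Abt1 was 0.35 (limma adjusted p = 0.648). Zfp322a, a zinc finger gene, is named here as the last of the region's genes on the array before Abt1. It measured 122.2 and 136.6 in wild type, 108.3 and 152.1 in line 1 and 82.9 and 207.7 in line 2. These values did not follow the order of the lines seen for Abt1. The arrays of line 2 were the lowest and the highest of the 6 for Zfp322a, and the log2 change in that line was 0.02 ± 0.42 (SE, adjusted p = 0.989). With an SE of this size, whether Zfp322a shared the change of Abt1 cannot be told.

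Trim27 encodes a RING finger protein with ubiquitin ligase activity that acts in transcriptional repression. Its single probe set measured 482.9 and 474.8 in wild type, 460.9 and 413.2 in line 1 and 515.6 and 635.6 in line 2. The lines did not overlap, with line 1 lowest, wild type between and line 2 highest. The log2 change was -0.13 ± 0.15 (SE, adjusted p = 0.822) in line 1 and 0.26 ± 0.15 (adjusted p = 0.504) in line 2. Their difference was -0.39 ± 0.15 (line 1 minus line 2, unadjusted p = 0.0408, limma adjusted p = 0.627). For the null average the change was 0.06 ± 0.13 (adjusted p = 0.885), 1.04-fold with a 95% interval of 0.837 to 1.30.

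Gmnn encodes geminin, which binds the licensing factor Cdt1 and keeps replication origins from firing again in the same cell cycle. Its single probe set measured 211.7 and 161.7 in wild type, 194.1 and 158.5 in line 1 and 180.6 and 189.7 in line 2. The 3 lines overlapped, and the wild-type arrays stood further apart than those of either null line. The log2 change of the null average was -0.04 ± 0.16 (SE, adjusted p = 0.951), 0.974-fold with a 95% interval of 0.748 to 1.27, and those of line 1 and line 2 were -0.08 ± 0.18 and 0.00 ± 0.18. Of 14 other licensing genes, Cdt1, Cdc6 and subunits of the origin recognition and MCM complexes, 12 were tested in the null average and 0 passed. Changes were positive for 10 of them, 2 had an unadjusted p under 0.05, with a median change of 0.11. Over all 5654 genes tested, 2737 changes were positive, 740 had an unadjusted p under 0.05 and the median was -0.01. Mcm7, a subunit of the replicative helicase with the smallest p among them, had a log2 change of 0.29 ± 0.11 (SE, adjusted p = 0.359). Cdt1 itself was at 0.15 ± 0.11 (adjusted p = 0.603).

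Sox4, a transcription factor of the SoxC group that acts in progenitor cells, has 2 probe sets on the array, and they did not order the arrays alike. The first, by the lower number in its identifier, measured 152 and 155 in wild type, 124.1 and 136.4 in line 1 and 134.9 and 140.6 in line 2, so that all 4 null arrays were below both wild-type arrays. Its log2 change in the null average was -0.19 ± 0.11 (SE, adjusted p = 0.505), 0.874-fold with a 95% interval of 0.729 to 1.05. The second measured 144.2 and 175.9 in wild type, 153.5 and 199.2 in line 1 and 153.4 and 140 in line 2, and there the groups overlapped. Its change was 0.01 ± 0.16 (adjusted p = 0.992), with an interval of 0.772-fold to 1.31-fold. The line changes of the second probe set had opposite signs, 0.13 ± 0.18 in line 1 and -0.12 ± 0.18 in line 2 (adjusted p = 0.852 and 0.825). Of the other SoxC genes, Sox11 was tested, at 0.14 ± 0.17 in the null average (adjusted p = 0.777).

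The other members gave no signal that could be compared. Hfe, an MHC class I-like protein that binds the transferrin receptor and acts in iron sensing, stands next to the targeted H1f2. Its probe set measured 5.8 and 11.5 in wild type, 14.4 and 2.5 in line 1 and 8.3 and 8.4 in line 2, and was above background on 1 of the 6 arrays, the first of line 1. Btn1a1, a butyrophilin of the milk fat globule membrane, measured between 4 and 6.2. Slc17a1, a phosphate and urate transporter known from kidney, measured between 3.5 and 9.1 with one probe set and between 1.5 and 11.7 with the other. Cmah, the hydroxylase that makes the sialic acid Neu5Gc, measured between 0.8 and 2.4. Btn1a1, Slc17a1 and Cmah were at or below background on all 6 arrays, so a fall, or a change within the background, was not detectable here. None of these genes rose above background in the null cells, and no fold is given.

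Partner genes were also listed for Hfe, Cmah and Aldh5a1. Of 11 genes of iron handling, 8 are named on the array, 7 were tested in the null average and 0 passed, with 3 positive and 4 negative changes and a median of -0.03. The ferritin heavy chain gene Fth1, which stores iron, had the smallest p, at 954 ± 38.8 (SD, n = 2) in wild type and 1227 ± 98.1 (SD, n = 4) in null cells (limma log2 difference 0.36 ± 0.12 SE, adjusted p = 0.307). The transferrin receptor Tfrc, the partner of Hfe, was at -0.03 ± 0.19 (adjusted p = 0.971). Of 5 genes of sialic acid supply and breakdown around Cmah, all 5 were tested and 0 passed, with 1 positive and 4 negative changes and a median of -0.14. Slc35a1, the CMP-sialic acid transporter, had the smallest p among these (-0.21 ± 0.14, adjusted p = 0.593). Of 3 GABA genes around Aldh5a1, Gad1 was the single one tested, at -0.01 ± 0.12 in the null average (adjusted p = 0.981).

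The array holds 41 other non-histone genes of the region, counted from 5 Mb before Trim27 to 5 Mb after Sox4, of which 18 were tested. In the null average 0 of the 18 passed, 3 had an unadjusted p under 0.05, and 7 changes were above 0 and 11 below, around a median of -0.09. Over all 5654 genes tested, 10 passed with a rise and 8 with a fall, and 740 had an unadjusted p under 0.05. Of these 5654 changes, 2737 were above 0 and 2917 below, around a median of -0.01. The 155 tested genes of chromosome 13 outside the region had a median of -0.04, with 0 passing and 15 with an unadjusted p under 0.05. In line 1 and line 2 against wild type, 0 of the 18 passed, with 3 and 4 genes at an unadjusted p under 0.05. Over all 5654 genes, 543 and 810 had such a p in these comparisons. Between the null lines both counts were 0 for the 18, and 414 of the 5654 had an unadjusted p under 0.05. The 5 tested neighbours that lie among the genes from Trim27 to Scgn had a median of -0.03, and the 5 from Scgn to Sox4 one of -0.07. The 4 after Sox4 all had negative changes, with a median of -0.27, and the 4 before Trim27 had a median of 0.11.

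Serpinb9, an inhibitor of granzyme B that lies beyond Sox4, had the smallest p of the region. It measured 53.5 and 51.3 in wild type, 23.6 and 26.8 in line 1 and 32.2 and 31 in line 2, and the null average differed by -0.85 ± 0.11 on the log2 scale (SE, limma adjusted p = 0.0508). All 4 null arrays were below both wild-type arrays, and the adjusted p lay just outside the threshold. It passed with a pseudocount of 2.4, the unrounded percentile, a setting added after seeing the data (adjusted p = 0.0497), or of 16 (adjusted p = 0.0468). Serpinb9 did not pass without the filter (adjusted p = 0.215), with quantile normalization (0.0921) or with a spread that follows the signal (0.0771). Nor did it pass with the experiment number as a block (0.108) or with the null arrays as 1 group (0.0780). Aoah, a lipase that detoxifies bacterial lipopolysaccharide and lies before Trim27, measured 28 and 25.7 in wild type and between 33.9 and 38.7 in the null cells (0.40 ± 0.11, adjusted p = 0.249). Rala, a small GTPase of membrane traffic also before Trim27, measured 172 and 199.8 in wild type and between 125.8 and 153.9 in the null cells (-0.39 ± 0.14, adjusted p = 0.317). These 3 genes, the only ones of the region with an unadjusted p under 0.05 in the null average, lie outside the stretch from Trim27 to Sox4. Of the tested neighbours, 10 lie within that stretch, 4 before it and 4 after it. Such counts, cut at a single p, are too small to read a pattern by position.

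**Figure D4:**
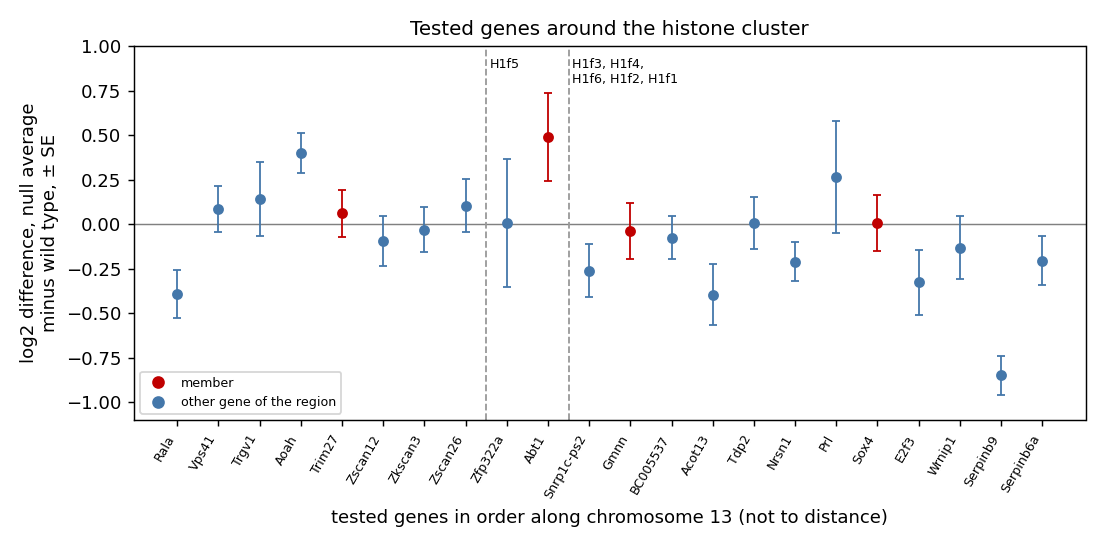
Points are log2 differences of the null average minus wild type, with bars of ± 1 SE, for the tested genes of the region in their order along chromosome 13, evenly spaced rather than by distance. Members are red and other genes blue, each by its brightest probe set, and dashed lines mark where the linker histone genes lie in this order. Abt1 (0.49) is the highest point and Serpinb9 (-0.85) the lowest, and neither passed at an adjusted p of 0.05.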

How the data were processed

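Signals were measured in wild-type cells and in 2 H1 triple-null lines, 2 arrays each. The deposited values are intensities on a linear scale, made by the authors with MAS5, a tool the submitters' processing notes list without a version. The trimmed mean, dropping the top and bottom 2% of probe sets, was 99.98 on every array, which is the authors' scaling and was kept. The array software's present and absent calls were not analysed. Gene names came from GEO's platform annotation, and 10817 of 10833 listed with 1 gene matched the RefSeq gene table (GRCm38.p6), which gave the gene order.

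Values were tested as log2(value + 2), where 2 is the 10th percentile of all values (2.4) rounded, with limma 3.58.1 in R 4.3.3: a mean per line over all 6 arrays, 3 residual and 3.17 prior degrees of freedom. Probe sets below the 40th percentile of mean signal and 66 control probe sets were left out. An exact two-sided permutation test of 2 arrays against 4 has a smallest p of 0.0667. Single genes stand for lists by their brightest probe set. Members and lists were chosen with earlier results of these data known. All member probe sets are named; region genes are named if past the threshold or at an unadjusted p under 0.05 in the null average, up to 6; partner lists are given by counts and the gene with the smallest p; Cdt1 and Tfrc are named as binding partners and Zfp322a for its place, outside this rule. For members past the threshold, genes of like pattern were to be named, and there were none. The fit was tested on simulated data. Alternatives were other pseudocounts, filters, normalization and spread, the experiment number as a block, and leaving out each array; the unrounded pseudocount was added after seeing the data. Figures were drawn with matplotlib 3.10.9.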

Additional observations from a re-analysis of the deposited data

How the results depend on the processing

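No member passed in any alternative: the 20 member differences (5 probe sets, 4 comparisons), each recomputed under 13 or 14 alternatives, gave 0 calls, and 11 of the 20 kept their sign throughout. For Abt1 in line 2 the change lay between 0.64 and 1.19 and the adjusted p between 0.115 and 0.674. Sign changes were confined to small differences and, with 1 exception, to leaving out an array. The exception was Gmnn in line 2, at -0.00039 with a pseudocount of 16. Leaving out each array in turn, with the lone array of a line assumed to vary like the others, gave the following ranges on the log2 scale. For the null average they were -0.013 to 0.14 for Trim27, -0.23 to 0.15 for Gmnn and -0.13 to 0.15 for the second probe set of Sox4. In line 1 they were -0.20 to 0.33 for Abt1, -0.27 to 0.12 for Gmnn and -0.053 to 0.32 for that Sox4 probe set. In line 2 they were -0.19 to 0.19 for Gmnn and -0.26 to 0.023 for that Sox4 probe set, and between the null lines -0.22 to 0.068 for Gmnn. Of the differences that kept their sign, a single array also moved the null average of Abt1 (0.49, range 0.23 to 0.75) by over 1.5 times. It did so for Trim27 in line 1 (-0.13, range -0.21 to -0.05), in line 2 (0.26, range 0.11 to 0.41) and between the lines (-0.39, range -0.54 to -0.24). Both probe sets of Sox4 were moved as much between the lines (first -0.08, range -0.15 to -0.014, and second 0.25, range 0.07 to 0.44). The number of probe sets called over the whole table varied more. For the null average it was 31, and 54 with a pseudocount of 16, 8 without the filter, 64 with a filter at the 60th percentile, 101 with a spread that follows the signal, and 7 to 13 with any array left out. For line 1 it was 10, and 5 without the filter, 17 with the stricter filter, 42 with the trend, and 4 to 10 with any array left out. For line 2 it was 19, and 31, 5, 59 and 92 with those 4 alternatives, and 0 to 10 with any array left out. Between the null lines it was 2, and 1 with a pseudocount of 16, the stricter filter or quantile normalization, and 0 without the filter or with any array left out. Of the region's other genes, 1, Serpinb9, was called in the null average with a pseudocount of 16 or 2.4, and 0 in all other alternatives and comparisons. The cause of these changes was not tested. Same-numbered arrays of different lines deviated together only weakly (r between 0.05 and 0.09 over 7453 probe sets, which are not independent replicates), so the numbers were not taken as pairs. With the replicate number as a block, 14 probe sets were called in the null average, 10 in line 1, 18 in line 2 and 0 between the null lines. With that block Abt1 had an adjusted p of 0.115 in line 2, and again no member passed. Within experiments 1 and 2 the Abt1 signal of line 2 was 1.92 and 1.89 times that of wild type. These are ratios of single arrays without the pseudocount, not estimates of the fit. The 2 arrays per line limit the precision of every value.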

Other observations

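Many further genes of the region were too dim to compare. Of 10 prolactin family genes between Scgn and Sox4, hormones of pituitary and placenta, Prl alone passed the filter. It measured 30.2 ± 15.7 (SD, n = 2) in wild type and 34.8 ± 6.9 (SD, n = 4) in null cells (limma log2 difference 0.26 ± 0.31 SE, adjusted p = 0.781). Of the 41 other genes of the region, 16 were not above background on any array.

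Foxq1, a forkhead transcription factor beyond Sox4, was below the filter and was chosen after its values were seen. It measured 24.5 and 25.7 in wild type, 17.9 and 12.2 in null line 1 and 8.3 and 15.9 in null line 2, with all 4 null arrays below both wild-type arrays. Of all tested probe sets, to which Foxq1 does not belong, 23.0% had their null arrays on one side in this way. Other untested genes of the region, among them Serpinb6c and Serpinb9e beyond Sox4 and Ripor2 before it, also had all null arrays below wild type. Ripor2 was at or below background on every array, and Serpinb9e on most of its null arrays. These genes too were picked after their values were seen. How often untested probe sets show this pattern was not counted, so no change is read from it. Both Foxq1 values of line 2 were at or below the background of their arrays (12.5 and 16.8), so no fold is given. Gad1, which makes GABA, was also chosen after its values were seen: its log2 change was 0.31 ± 0.14 in line 1 and -0.33 ± 0.14 in line 2, and the difference between the lines was 0.63 ± 0.14 (SE, unadjusted p = 0.00356, limma adjusted p = 0.554).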
